A study of Rattus norvegicus with 6 samples.

Results

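Marker genes of glia and other non-neuronal cells, 6 in all, were followed in rat hippocampal neuron cultures: Gfap (ENSRNOG00000002919), S100b (ENSRNOG00000001295) and Vim (ENSRNOG00000018087) for astrocytes and other non-neuronal cells, Mbp (ENSRNOG00000016516) for oligodendrocytes, and Aif1 (ENSRNOG00000000853) and Itgam (ENSRNOG00000019728) for microglia. They were taken by Ensembl identifier, and all 6 were found among the 31998 genes of the count table. The cultures were hippocampal neurons of Wistar rats, an outbred strain, prepared at embryonic day 17 and kept for 12 days. Every culture, controls included, received 10 µM cytosine arabinoside on day 3, a drug that limits dividing cells. Palmitic acid, a saturated fatty acid carried on albumin, was given at 200 µM to 3 cultures, and 3 received the vehicle. Each of the specimens labelled N1, N4 and N5, here specimens 1, 4 and 5, gave 1 culture to each treatment. The sources used here do not give the number of embryos in a specimen or the length of the exposure. The design text speaks of 2 cultures per group and ribosomal RNA depletion, the sample labels of 3 per group and an mRNA kit.

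Library totals ran from 15875411 to 18241773 counts. Levels are CPM, read counts scaled to a common library size, on TMM-scaled totals, a scaling that evens out differences in library composition. Transcript lengths were not used here, so a gene's CPM is compared between libraries and not with the CPM of another gene. The libraries of specimen 4 stood apart from the rest over all genes: on the first principal component, which held 79.4% of the variance, they lay at 108 and 116, and the other 4 libraries between -64.4 and -49.8. The results below are therefore given for each specimen, and with and without specimen 4. In these bulk samples, fewer cells of a type and less RNA per cell cannot be told apart.

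Astrocytes arise late in hippocampal development, continue to divide after most neurons have formed, and build their cytoskeleton from intermediate filaments. Gfap, the glial fibrillary acidic protein, is the filament that defines astrocytes, while Vim, vimentin, forms filaments in immature astrocytes and in fibroblasts and endothelium as well. S100b is a calcium-binding protein abundant in astrocytes. Mbp, myelin basic protein, compacts the myelin sheath of oligodendrocytes, and the same gene also gives golli transcripts in neurons. Microglia enter the brain from the yolk sac, and carry the actin-bundling protein Aif1 (also called Iba1) and the integrin alpha chain Itgam (CD11b). Cytosine arabinoside is added to such cultures because glia divide and neurons do not.

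Summed over the 6 genes, glial marker RNA differed between the specimens by far more than between the treatments. The summed level of all 6 genes in the vehicle libraries was 1216 CPM in specimen 1, 22.4 CPM in specimen 4 and 4520 CPM in specimen 5. With palmitic acid it was 1246, 21.9 and 3548 CPM for the same specimens. These sums were 0.00217% and 0.00224% of all counts in specimen 4, 0.123% and 0.124% in specimen 1, and 0.451% and 0.356% in specimen 5 (vehicle, then palmitic acid). The cultures had thus passed through the same stated drug treatment with very different amounts of glial marker RNA. The genes did not enter the sum in the same shares. With vehicle, Gfap made up 60.7% of the reads of the 6 genes in specimen 5. In specimen 4 it made up 1.16%, and Mbp 61.4%. Transcript lengths were not used, so these shares, and the weight of each gene in the sum, do not rank the genes by level. By this sum, the 2 libraries of each specimen lay closer to each other than to those of any other specimen. This did not hold for every gene between specimens 1 and 5. Mbp had 360 and 309 CPM there with vehicle, and 174 and 173 CPM with palmitic acid. S100b with palmitic acid had 485 and 551 CPM, while specimen 1 with vehicle had 415 CPM.

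**Figure D1:**
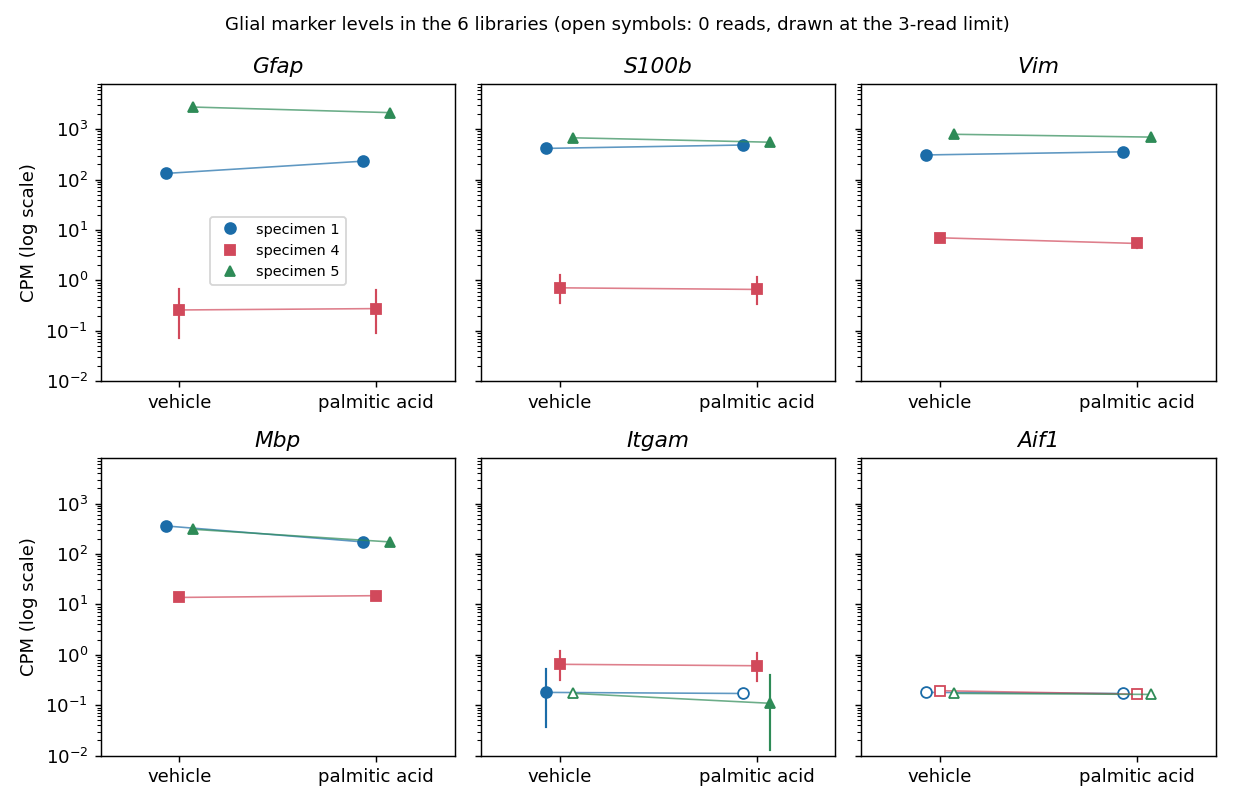
CPM of each marker gene (log axis) in the vehicle and palmitic acid library of each specimen; lines join the libraries of a specimen, bars are exact 95% counting intervals, and open symbols are libraries with 0 reads, drawn at the limit of 3 reads. Gfap, S100b, Vim and Mbp are lowest in both specimen 4 libraries, while Itgam has most of its reads there and Aif1 has none anywhere.

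Gfap, S100b and Vim share the difference between specimen 4 and the other cultures that the values below describe, so the bases ahead of their RefSeq starts are shown for these genes (GRCr8; Gfap chr10:88361662-88361911, minus strand; S100b chr20:12381082-12381331, minus strand; Vim chr17:81577011-81577260, plus strand). Each run is the 250 bases up to the start, 5′ to 3′ on the gene's strand. Capitals mark matches on either strand to the TATA box core TATAAA, the CCAAT box CCAAT, the STAT palindrome TTCNNNGAA or the nuclear factor I palindrome (TTGGC, any 5 bases, GCCAA).
Gfap: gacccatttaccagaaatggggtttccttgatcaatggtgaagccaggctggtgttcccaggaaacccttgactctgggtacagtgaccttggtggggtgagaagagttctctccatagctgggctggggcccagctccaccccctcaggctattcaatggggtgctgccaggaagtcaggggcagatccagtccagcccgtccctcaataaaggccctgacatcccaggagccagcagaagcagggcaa
S100b: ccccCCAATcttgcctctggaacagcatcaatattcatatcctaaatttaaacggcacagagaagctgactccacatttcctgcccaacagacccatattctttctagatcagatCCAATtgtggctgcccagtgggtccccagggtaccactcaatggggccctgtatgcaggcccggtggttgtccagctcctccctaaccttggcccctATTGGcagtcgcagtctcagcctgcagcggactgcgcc
Vim: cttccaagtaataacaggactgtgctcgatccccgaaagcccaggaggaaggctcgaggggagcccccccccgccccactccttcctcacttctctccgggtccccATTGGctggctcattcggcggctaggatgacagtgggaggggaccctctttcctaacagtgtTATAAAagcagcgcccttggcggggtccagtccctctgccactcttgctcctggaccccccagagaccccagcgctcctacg
Vim had 1 TATA box core, whose first base lay 82 bases before the start, and 1 CCAAT box, and S100b had 3 CCAAT boxes. Gfap had no match to any of the 4 motifs in this window. Of 33469 RefSeq windows of the same length, 12.9% held TATAAA, 34% CCAAT, 7.67% TTCNNNGAA and 0.0359% the nuclear factor I palindrome. These letters are a description of the windows, and nothing about a factor is drawn from them. RefSeq windows were found for 5 of the 6 genes by symbol. Mbp has 2 starts in that table, and the counts per gene do not separate them. Mbp was also lower in specimen 4, and both specimen 4 libraries lay under all 4 others at 28.3% of tested genes. The filter on low counts, described below, favours genes of this kind. By direction alone, the shared difference thus does not set Gfap, S100b and Vim apart. By size it was among the larger ones. Among 13938 tested genes, the absolute edgeR log2 fold change of specimen 5 against 4 ranked 1st for Gfap and 42nd for S100b. It ranked 213th for Vim and 619th for Mbp, and the value for Gfap rests on few reads in specimen 4.

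Gfap had 4 reads (0.259 CPM) in the vehicle library of specimen 4 and 5 reads (0.276 CPM) in its palmitic acid library. Specimen 1 had 2209 reads (132 CPM) with vehicle and 4061 reads (232 CPM) with palmitic acid. Specimen 5 had 47997 reads (2745 CPM) and 38914 reads (2127 CPM). The defining astrocyte filament was thus near the limit of detection in specimen 4, where a gene with no read could still have had up to 0.195 or 0.166 CPM (3 reads), and was high in specimen 5. Within the vehicle libraries, Gfap was 510-fold higher in specimen 1 than in specimen 4 (95% counting interval 199 to 1875) and 20.7-fold higher in specimen 5 than in specimen 1 (19.9 to 21.6). These intervals are exact Clopper-Pearson bounds and cover counting error only.

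S100b followed the same split between specimen 4 and the rest, but set specimens 1 and 5 less far apart. It had 11 and 12 reads in specimen 4 (0.713 CPM with vehicle, 0.663 CPM with palmitic acid). Specimen 1 had 6930 and 8501 reads (415 and 485 CPM), and specimen 5 had 11786 and 10084 reads (674 and 551 CPM). In the vehicle libraries S100b was 582-fold higher in specimen 1 than in specimen 4 (counting interval 325 to 1167), and 1.62-fold higher in specimen 5 than in specimen 1 (1.58 to 1.67).

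Vim was lower in specimen 4 by a smaller factor. Its reads there were 108 with vehicle (7.0 CPM) and 98 with palmitic acid (5.41 CPM). Specimen 1 held 5142 and 6235 reads (308 and 356 CPM), and specimen 5 held 13839 and 12740 reads (792 and 696 CPM). The vehicle library of specimen 1 was 44.0-fold above that of specimen 4 (counting interval 36.4 to 53.7), and that of specimen 5 was 2.57-fold above that of specimen 1 (2.49 to 2.65).

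Mbp, the oligodendrocyte gene, did not share the order of specimens 1 and 5. It had 6009 reads in specimen 1 with vehicle and 3048 with palmitic acid (360 and 174 CPM). Specimen 5 had 5396 and 3172 reads (309 and 173 CPM), and specimen 4 had 212 and 270 reads (13.7 and 14.9 CPM). The vehicle library of specimen 1 was 26.2-fold above that of specimen 4 (counting interval 22.8 to 30.2). Between specimens 5 and 1 the ratio was 0.857 with vehicle (0.826 to 0.889) and 0.997 with palmitic acid (0.949 to 1.05).

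The differences between specimens were tested in edgeR's quasi-likelihood fit of the whole table, with treatment as a covariate and p-values adjusted by Benjamini-Hochberg over 13938 genes. Gfap, S100b, Vim and Mbp passed the filter on low counts, Gfap only through the 4 libraries of specimens 1 and 5. Aif1 and Itgam did not pass. The filter kept genes with about 10 reads or more, scaled to library size, in 3 or more libraries. Gfap fell short of this in specimen 4 and could pass only by being higher elsewhere. Its fitted values against that specimen are therefore given as a description with no p. S100b, Vim and Mbp were called lower in specimen 4 than in specimen 1, as were 19.1% of tested genes, and higher in specimen 5 than in specimen 4, as were 20.7%. With 2 libraries per specimen, a gene with reads in specimen 4 alone could not pass the filter. A gene absent from specimen 4 alone could. The shares of tested genes that were lower in specimen 4 are therefore tilted toward such genes. Each specimen enters with 2 libraries, so the p-values are for these cultures and not for rats in general.

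Against specimen 1, specimen 4 had a log2 fold change of -9.34 ± 0.27 (SE) for S100b (edgeR adjusted p = 1.96e-05). The values were -5.75 ± 0.22 for Vim (adjusted p = 3.24e-05) and -4.10 ± 0.31 for Mbp (adjusted p = 0.000255). The fitted value of Gfap was -9.35 ± 0.48 for specimen 4 against 1 and 13.14 ± 0.51 for specimen 5 against 4, both resting on the 4 and 5 reads in specimen 4. Of specimen 5 against specimen 4, S100b had 9.78 ± 0.28 (adjusted p = 1.68e-05), Vim 6.91 ± 0.23 (adjusted p = 1.71e-05) and Mbp 3.98 ± 0.31 (adjusted p = 0.000248).

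Specimens 5 and 1 differed at 2 of the 4 genes. Gfap was higher in specimen 5 by 3.78 ± 0.31 (log2, SE; edgeR adjusted p = 0.00977) and Vim by 1.16 ± 0.18 (adjusted p = 0.0327), where 2.25% of tested genes were called higher. S100b had 0.44 ± 0.17 (adjusted p = 0.215) and Mbp -0.12 ± 0.27 (adjusted p = 0.834), and neither passed. The call for Vim was lost without the vehicle library of specimen 1 (0.93, adjusted p = 0.0792), the vehicle library of specimen 5 (1.08, adjusted p = 0.103) or the palmitic acid library of specimen 5 (1.23, adjusted p = 0.131). Gfap remained called without any 1 of the 6 libraries.

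**Figure D2:**
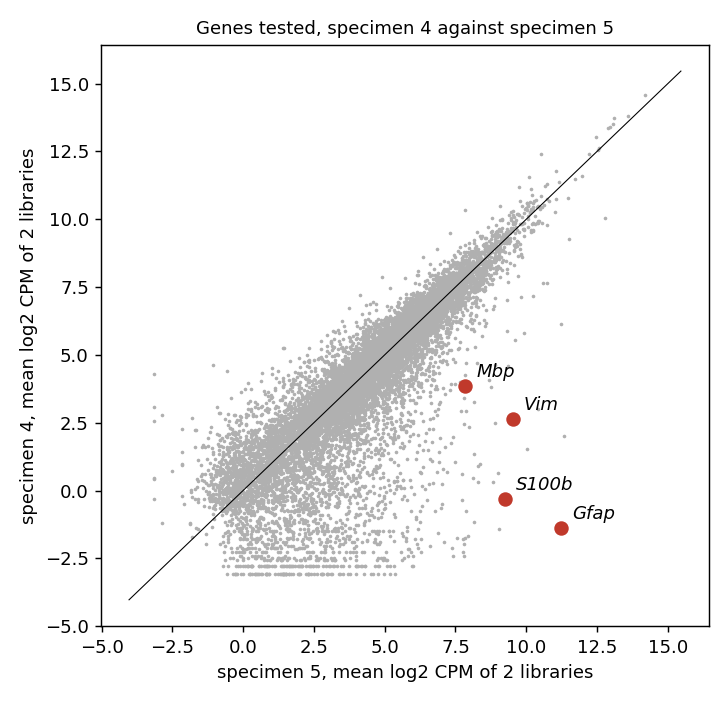
Mean log2 CPM (prior count 2) of the 2 libraries of specimen 5 (x axis) and specimen 4 (y axis) for the 13938 genes tested; red points are the glial markers, gray points all other genes, and the line marks equal levels. The 4 markers plotted lie below the line, with edgeR log2 fold changes of 13.14 for Gfap, 9.78 for S100b, 6.91 for Vim and 3.98 for Mbp, that of Gfap resting on 4 and 5 reads in specimen 4.

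Gfap and S100b, but not Vim or Mbp, were among 144 genes (1.03% of those tested) nearly absent from specimen 4, with less than 1 CPM in each of its libraries and no less than 10 CPM in any of the other 4. More widely, both specimen 4 libraries lay under all 4 others at 28.3% of tested genes, and Gfap, S100b, Vim and Mbp were among these. The filter on low counts tilts both shares toward genes low in specimen 4.

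Likeness to Gfap was measured as the root mean square difference in log2 CPM over the 6 libraries, after each gene was centred on its own mean. The libraries of a specimen share their source, so this measure mostly reflects the 3 specimens. S100b was the 5th nearest of 13937 genes (1.52), Vim the 79th (2.35) and Mbp the 465th (3.56). The 2 nearest genes were ENSRNOG00000016043 (1.29) and ENSRNOG00000043098 (1.44), which the files do not pair with names. ENSRNOG00000016043 had 3 and 6 reads in specimen 4 against 3309 to 11178 in the other libraries. ENSRNOG00000043098 had 3 and 0 reads in specimen 4 against 1545 to 3248. With vehicle, ENSRNOG00000016043 had 343 CPM in specimen 1 and 639 CPM in specimen 5, and ENSRNOG00000043098 had 98.3 and 186 CPM. Neither gene set these specimens as far apart as Gfap did (132 and 2745 CPM). With palmitic acid in specimen 1 they had 189 and 88.1 CPM, lower than with vehicle, while Gfap was higher.

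The microglial genes were at or near 0 throughout. Aif1 had 0 reads in each of the 6 libraries, which over 103464392 counts allows a level of up to 0.029 CPM (3 reads). The table lists 11288 genes with no read in any library, and whether reads of Aif1 were counted elsewhere is not known. Itgam had 26 reads in all, 0.251 CPM over all libraries (exact 95% Poisson interval 0.164 to 0.368). Its reads were 3, 10 and 0 with vehicle and 0, 11 and 2 with palmitic acid for specimens 1, 4 and 5. Specimen 4, lowest for the other markers, held 21 of these 26 reads, at 0.626 CPM (0.388 to 0.957), against 0.0877 CPM in specimen 1 (0.0181 to 0.256) and 0.0559 CPM in specimen 5 (0.00677 to 0.202). In the edgeR fit without a filter, specimen 4 exceeded specimen 1 by 2.76 ± 1.19 (log2, SE; adjusted p = 0.149) and specimen 5 fell short of specimen 4 with -3.31 ± 1.27 (adjusted p = 0.102). Neither difference passed the threshold.

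Palmitic acid was then compared with vehicle, paired by specimen, to ask whether glial markers differed between the treated and the vehicle culture of a specimen. No gene of the 4 tested passed the paired edgeR test, in which 0% of 13938 genes were called. At an unadjusted p under 0.05, 1 of the 4 (Mbp) was counted, against 3.54% of all tested genes. The paired DESeq2 fit called 6 genes (0.029% of those with a p-value) and the paired limma fit 0 (0%), with none of the glial markers among them. At an unadjusted p under 0.05, DESeq2 counted 1.93% and limma 4% of tested genes, again with Mbp as the only marker of the 4. The treatment groups overlapped for each of the 4 genes, which the differences between specimens fix in advance, so the ratios within specimens are given next.

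Mbp was the marker with the largest difference in the paired fit. The vehicle mean was 228 ± 187 CPM, and the mean of the treated libraries 121 ± 91.6 CPM (SD, n = 3). The log2 ratio of palmitic acid to vehicle was -1.05 in specimen 1 (counting interval -1.11 to -0.99), a fold of 0.483. In specimen 5 it was -0.83 (-0.90 to -0.77), a fold of 0.562. In specimen 4, where Mbp was low, the ratio was 0.12 (-0.15 to 0.38), an interval that spans no difference. Mbp was thus lower with palmitic acid in specimens 1 and 5 by more than counting error, as were 22.5% of tested genes by sign alone, and not detectably different in specimen 4.

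Over all specimens the paired edgeR log2 fold change of Mbp was -0.63 ± 0.23 (SE), with unadjusted p = 0.0298 and adjusted p = 0.938. Leaving out specimen 4 gave -0.94 (adjusted p = 0.097). Leaving out specimen 1 gave -0.40 (adjusted p = 0.908), and leaving out specimen 5 gave -0.53 (adjusted p = 1). The paired DESeq2 fit gave -0.63 ± 0.23 (adjusted p = 1) over all specimens. Without specimen 4 it gave -0.95 and called the gene (adjusted p = 2.06e-06). That fit was chosen after the data were seen, leaves 1 residual degree of freedom and rests on specimens 1 and 5. The edgeR fit of the same libraries did not call Mbp. Among the 13938 tested genes, 238 had a lower log2 ratio than Mbp in specimen 1 and 146 in specimen 5, and 21 genes, Mbp included, were as low or lower in both. The last count covers only the specimens in which Mbp was lower. It leaves out specimen 4, where 59.4% of tested genes had a lower ratio than Mbp. By sign alone, 11.3% of tested genes were lower in specimens 1 and 5 and higher in specimen 4.

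The astrocyte markers had ratios of opposite sign in specimens 1 and 5, and none passed the test over specimens. Gfap had a log2 ratio of 0.81 in specimen 1 (counting interval 0.73 to 0.88), a 1.75-fold higher level with palmitic acid. In specimen 5 it was -0.37 (-0.39 to -0.35), a fold of 0.775, and in specimen 4 the ratio of 5 to 4 reads left it between -2.13 and 2.42. S100b had 0.22 in specimen 1 (0.18 to 0.27), -0.29 in specimen 5 (-0.33 to -0.25) and -0.11 in specimen 4 (-1.41 to 1.22). Vim had 0.21 in specimen 1 (0.15 to 0.26), -0.18 in specimen 5 (-0.22 to -0.15) and -0.37 in specimen 4 (-0.78 to 0.04). All 3 were higher with palmitic acid in specimen 1 and lower in specimen 5, as were 27.4% of tested genes. The counting intervals of specimens 1 and 5 did not include 0 for these genes, and those of specimen 4 did. These intervals cover counting error only. Among tested genes in specimen 1, 98.4% had a lower ratio than Gfap, 82.4% than S100b and 79.9% than Vim. In specimen 5 these shares were 5.95%, 8.98% and 16.6%. Each specimen has 1 culture per treatment, so whether the treatment acted differently in them could not be tested.

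**Figure D3:**
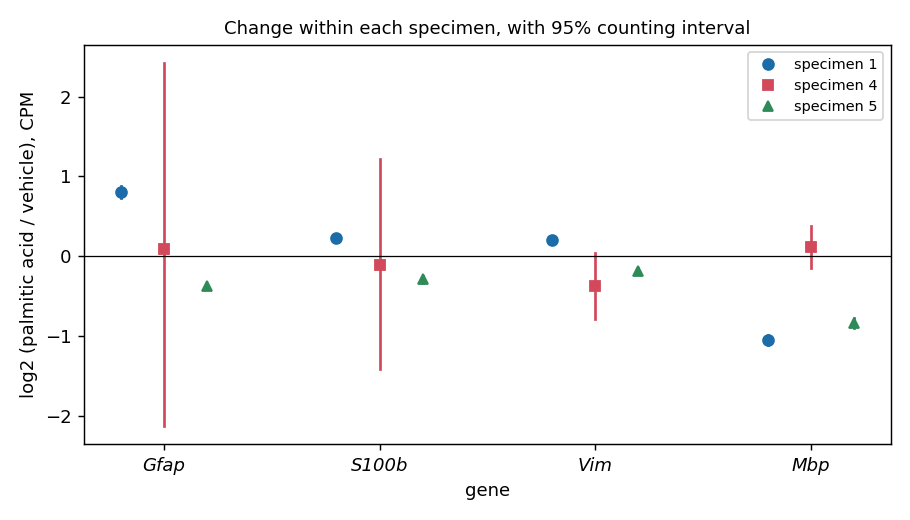
Log2 ratio of CPM, palmitic acid over vehicle, within each specimen for the 4 genes that passed the filter, with exact 95% counting intervals. Gfap, S100b and Vim, none of which passed the paired test, lie above 0 in specimen 1 and below 0 in specimen 5, and Mbp lies at -1.05 and -0.83 in these specimens and at 0.12 in specimen 4.

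The paired edgeR log2 fold changes over all specimens were 0.21 ± 0.28 (SE) for Gfap (adjusted p = 0.948), -0.04 ± 0.16 for S100b (adjusted p = 0.985) and -0.09 ± 0.15 for Vim (adjusted p = 0.956). For Gfap the sign rested on specimen 1: the value without it was -0.33 (adjusted p = 0.911). Leaving out specimen 5 gave 0.68 (adjusted p = 1). Without specimen 4, Gfap had 0.21 (adjusted p = 0.918), S100b -0.03 (adjusted p = 0.984) and Vim 0.01 (adjusted p = 0.996). Group means, vehicle first and treated second, were 959 ± 1548 and 786 ± 1167 CPM for Gfap, 363 ± 340 and 346 ± 301 CPM for S100b, and 369 ± 396 and 352 ± 346 CPM for Vim (SD, n = 3). These standard deviations are set by the specimens, not by spread among like cultures.

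Itgam had 13 reads in the vehicle libraries together and 13 in the palmitic acid libraries. Its paired edgeR log2 fold change without a filter was -0.26 ± 1.01 (SE; adjusted p = 0.987), and Aif1 had no read to compare. A change in microglial markers was not detectable at this depth.

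**Figure D4:**
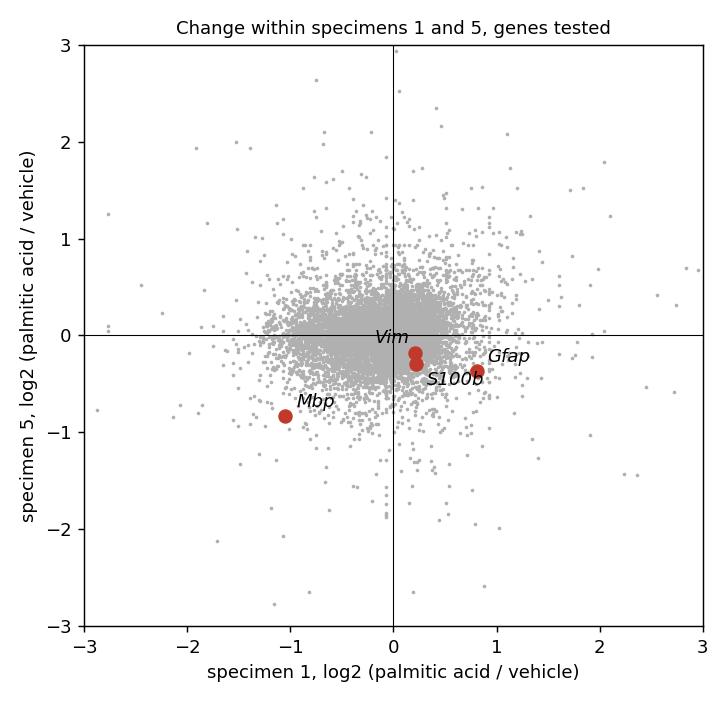
Log2 ratio of palmitic acid to vehicle (CPM, prior count 2) in specimen 1 (x axis) and specimen 5 (y axis) for 13889 tested genes, with 49 beyond the axes left out; red points are the glial markers and gray points all other genes. Mbp lies at the lower left edge of the cloud, while Gfap, S100b and Vim lie to the right of 0 and under it.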

How the data were processed

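The counts that the authors deposited are unnormalized whole numbers per gene, for 31998 rat genes with Ensembl identifiers and 6 libraries. Per the submitters' processing notes, the software was edgeR, DESeq2, featureCounts, STAR 2.7.1a, Trimmomatic 0.39 and Salmon 0.14.1, with no roles. The step that made the counts, the genome build, the annotation and the use of strand were not given in the sources used here, so reads of overlapping genes cannot be told apart. The RefSeq table (GRCr8) carries Ensembl identifiers for 0 of 47357 genes, so wider marker lists, neuronal markers included, could not be tested. The 6 genes are named as their list of identifiers pairs them, and every one is described; the only others named are the 2 genes with the smallest root mean square difference from Gfap in centred log2 CPM. The genes and lists were chosen with earlier results of these data known.

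Fits used R 4.3.3 and edgeR 4.0.16 (quasi-likelihood, TMM, filterByExpr with a minimum count of 10, specimen and treatment as terms, 6 libraries), at adjusted p under 0.05. The standard error is the log2 fold change over the square root of F. DESeq2 1.42.0, limma 3.58.1, other scalings and filters, no block and leaving out libraries or specimens were alternatives. Leave-out fits in edgeR kept the 13938 genes. The fit was tested on simulated data. The labels give each specimen once per treatment, which pairs the libraries; across genes, the correlation of the 2 libraries of a specimen, each taken as its deviation from the treatment mean, was 0.771, 0.891 and 0.855. No source says that specimens were separate animals, so p-values are for these cultures. No specimen had replicate cultures of a treatment, so p-values do not measure spread among like cultures. They rest on how the ratio of the treatments varied between specimens (2 residual degrees of freedom) and on spread shared over genes. No 2 libraries were copies (chi-square per degree of freedom 7.94 or more).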

Additional observations from a re-analysis of the deposited data

How the results depend on the processing

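Without the replicate block, edgeR called 0 genes in either direction and none of the markers. Gfap then reversed to -0.29 (log2), and to -0.30 in DESeq2 without the block, while limma without the block gave 0.067; S100b, Vim and Mbp kept their sign. The paired DESeq2 fit called 2 genes higher and 4 lower and the paired edgeR fit without a filter 2 higher and 1 lower, against 0 and 0, with no marker among them; the cause was not tested. Leaving out libraries or specimens gave 0 to 11 genes higher, 0 to 8 lower and 0 to 1 markers called (Mbp, DESeq2 without specimen 4). With the block and 1 specimen left out (edgeR and DESeq2), the palmitic acid log2 fold change ran from -0.35 to 0.69 for Gfap, -0.27 to 0.13 for S100b, -0.27 to 0.01 for Vim and -0.95 to -0.40 for Mbp. With the fits that leave out 1 library and have no block, where the specimens are no longer balanced between the treatments, the ranges were -3.05 to 3.52, -0.68 to 0.68, -1.03 to 1.11 and -1.49 to -0.40.

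Specimen 5 against 1 gave 407 genes, 877 in DESeq2 and 691 without a filter; 102 to 1475 were called without 1 library, with 1 to 2 markers, and Mbp ran from -0.42 to 0.23. Without 1 library, specimen 4 against 1 gave 2663 to 5852 genes against 4528, and specimen 5 against 4 gave 2463 to 5657 against 4830. The specimen contrasts without 1 library (a specimen's lone library is assumed to vary like the others), DESeq2 with a specimen left out, and DESeq2 and limma without the block were chosen after seeing the data. Other scalings kept the sign of every within-specimen ratio of Gfap, S100b, Vim and Mbp, and moved the median log2 fold change by -0.015 and 0.021. The summed level of vehicle specimen 5 was 4563 CPM with DESeq2 size factors against 4520, and on raw totals the sums of specimen 4 (vehicle, then treated) were 21.7 and 22.4 CPM, the opposite order to 22.4 and 21.9. In specimen 4, 4 to 12 reads per library limit Gfap and S100b, and Aif1 and Itgam are limited by depth in every library.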
